A study of Mus musculus with 34 samples.

Results

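The 9 genes described here encode 4 inhibitors of cyclin-dependent kinases (*Cdkn1a*, *Cdkn1b*, *Cdkn1c* and *Cdkn2d*), 2 Cables proteins (*Cables1* and *Cables2*) and the 3 D-type cyclins (*Ccnd1*, *Ccnd2* and *Ccnd3*). They were chosen by name, with earlier results of these data known. Taken were the rows of the bulk RNA-seq count table whose GENCODE symbol is one of these 9. All 9 were found among the 54532 genes of that table. All 9 also passed the filter on low counts, as did 22018 genes in all. The study asked which genes respond in the hippocampus at an early time after spatial learning. Its bulk RNA-seq holds 1 library per mouse from 8 male C57BL/6J mice aged 2–3 months, made from whole dorsal hippocampus, among 34 samples of several assays. Mice were individually housed and handled beforehand. The 4 SOR mice were habituated to an open field, trained in the spatial object recognition (SOR) task in sessions with 3 objects at fixed places, and euthanized 1 h later. The 4 homecage (HC) mice were euthanized at the same time of day without training, so that exposure to the arena, to its objects and to their arrangement cannot be told apart in this comparison. The mice carried no transgene, and whole tissue was sequenced, so that more cells of a type and more RNA per cell cannot be told apart either.

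In dividing cells, a D-type cyclin binds Cdk4 or Cdk6 in the G1 phase, and the complex phosphorylates the retinoblastoma protein, which releases E2F factors and opens the way to DNA replication. Proteins of the Cip/Kip family (p21 from *Cdkn1a*, p27 from *Cdkn1b*, p57 from *Cdkn1c*) bind cyclin-kinase complexes, whereas those of the INK4 family, to which p19INK4d from *Cdkn2d* belongs, bind Cdk4 and Cdk6 alone. Cables proteins link kinases of the Cdk family, Cdk5 of postmitotic neurons among them, to the tyrosine kinase Abl. Most hippocampal neurons have left the cell cycle for good and yet express many of these genes, and division continues mainly in glial precursors and in progenitors of the dentate gyrus.

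In brief, no member passed the adjusted p threshold in edgeR's quasi-likelihood test with upper-quartile scaling. With TMM scaling the same test called *Cables1*, as did limma-voom (0.377% and 0.286% of all tested genes). DESeq2 and edgeR's likelihood ratio test called *Cdkn1a* and *Cables1*, and also more of all genes (2.45% and 0.972%, against 0.309%). RLE or library size scaling, other filtering, unrounded counts and a replicate block called no member. Nor did any fit with 1 sample left out. *Cdkn1a* and *Cables1* had the lowest p of the 9 and were higher in every SOR mouse than in every HC mouse. *Ccnd2* was higher and *Cables2* lower with the same separation, both by less. In the other 5 genes the groups overlapped. Of all tested genes, 6.95% had groups that did not overlap. The regulatory sequence of *Cdkn1a* and *Cables2* is shown first, because these are the members with separated groups whose promoter is in the RefSeq table (build GRCm38.p6). The table held 5 of the 9 members, and *Cdkn1c*, *Cables1*, *Ccnd1* and *Ccnd2* had no entry.

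*Cdkn1a* (ENSMUSG00000023067) lies on the plus strand of chromosome 17 from 29090976 to 29100727 (GENCODE M21, GRCm38) and has 2 starts in the RefSeq table. The window before the upstream start is chr17:29090729-29090975 and the one before the downstream start is chr17:29093519-29093768. *Cables2* (ENSMUSG00000038990) lies on the minus strand of chromosome 2 from 180258540 to 180273496, and its window is chr2:180273497-180273715. Each is printed 5′ to 3′ on the strand of the gene. The first and the third end at the last base before the GENCODE start of the gene, the second at the last base before its RefSeq start. Capitals mark matches to a p53 site in the first, to GGGCGG (the GC box) and TATAA (the TATA box) in the second, and to ATTTGCAT (the octamer) in the third.
Cdkn1a upstream start: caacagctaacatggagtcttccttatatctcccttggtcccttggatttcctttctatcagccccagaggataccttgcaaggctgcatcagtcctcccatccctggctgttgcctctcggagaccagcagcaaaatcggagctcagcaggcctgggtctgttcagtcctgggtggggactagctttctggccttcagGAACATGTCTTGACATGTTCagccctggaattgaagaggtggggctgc
Cdkn1a downstream start: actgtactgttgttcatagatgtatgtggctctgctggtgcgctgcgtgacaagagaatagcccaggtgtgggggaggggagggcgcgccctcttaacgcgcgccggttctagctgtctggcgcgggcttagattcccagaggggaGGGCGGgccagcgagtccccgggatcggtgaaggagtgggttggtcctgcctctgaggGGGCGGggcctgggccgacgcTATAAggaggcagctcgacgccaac
Cables2: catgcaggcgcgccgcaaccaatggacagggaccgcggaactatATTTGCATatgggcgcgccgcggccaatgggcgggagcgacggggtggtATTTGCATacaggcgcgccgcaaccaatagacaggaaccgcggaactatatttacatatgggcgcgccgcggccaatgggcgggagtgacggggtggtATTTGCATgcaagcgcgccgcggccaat

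The capitals of the first window, from 29090928 to 29090947, are a match to the binding site of p53, the factor for which *Cdkn1a* is a classical target. The site is made of 2 decamers in direct succession, and 1 mismatch outside their cores was allowed. Between it and the GENCODE start of the gene lie 28 bases, and between it and the downstream RefSeq start 2821. Of 32851 promoters cut to the same length, 0.0457% held such a match. The second window holds GGGCGG 2 times, a sequence found in 32.7% of promoters at this length, and TATAA, found in 22.8%. The third holds ATTTGCAT 3 times, against 1.47% of promoters with at least 1 (both strands counted). It also holds CCAAT 5 times at a constant spacing of 49 bases (30.9% of promoters have at least 1), and 2 copies of GGGCGG (28.3%), neither of which is in capitals. The first window also holds TATAA on the opposite strand (22.7% of promoters). In all, 10 motifs were searched on both strands, and they were chosen after these sequences had been read. The others were the cyclic AMP response element (TGACGTCA), the AP-1 site (TGANTCA), the E-box (CACGTG), an EGR site (GCGTGGGCG) and a glucocorticoid half-site (AGAACA). The 3 windows held none of these 5. A match is a string of letters and was not measured as a bound site in these data.

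Expression is given as CPM, the read count of a gene per 1000000 counts of a library size scaled with upper-quartile factors. The groups were set against each other by edgeR's quasi-likelihood test, and p was adjusted over all genes tested. Log2 fold changes are SOR over HC. At an adjusted p under 0.05, 0 of the 9 members were called, where 0.309% of all tested genes were (0.273% higher and 0.0363% lower), or 0.173% with a fold change above 1.4 as well. At an unadjusted p under 0.05 there were 4 members, 3 higher and 1 lower, against 10.1% of all genes (4.54% higher and 5.51% lower). Other models called members at the adjusted threshold. The study itself used edgeR after upper-quartile scaling and RUVs, which corrects for unwanted variation, with a number of factors that is not stated. It named *Cdkn1a* and *Cables1* among its differentially expressed genes of the bulk data (FDR under 0.05, fold change 1.4). It listed both with the genes that its pseudobulk spatial data had not identified. In the counts used here *Cables1* had a fold of 1.35 and passed both thresholds together in no model run. With DESeq2, 2 members passed the adjusted threshold, *Cdkn1a* and *Cables1*, where 2.45% of the genes with an adjusted p passed. The likelihood ratio test of edgeR called the same 2 (background 0.972%), also with 1 or 2 RUVs factors of unwanted variation (1.39% and 2.27%), and with 3 factors it called *Ccnd2* as well (2.31%). TMM scaling and limma-voom called *Cables1* alone (0.377% and 0.286%). The same 4 members were those whose groups did not overlap, a separation shown by 6.95% of tested genes (2.99% with SOR higher, 3.96% with SOR lower). By sign alone, 8 of 9 members were higher in SOR, and so were 43.8% of all genes. The median log2 fold change was 0.22 over the members and -0.02 over all genes. Because the members were chosen with earlier results of these data known, these shares are a description and no test of the set.

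**Figure D1:**
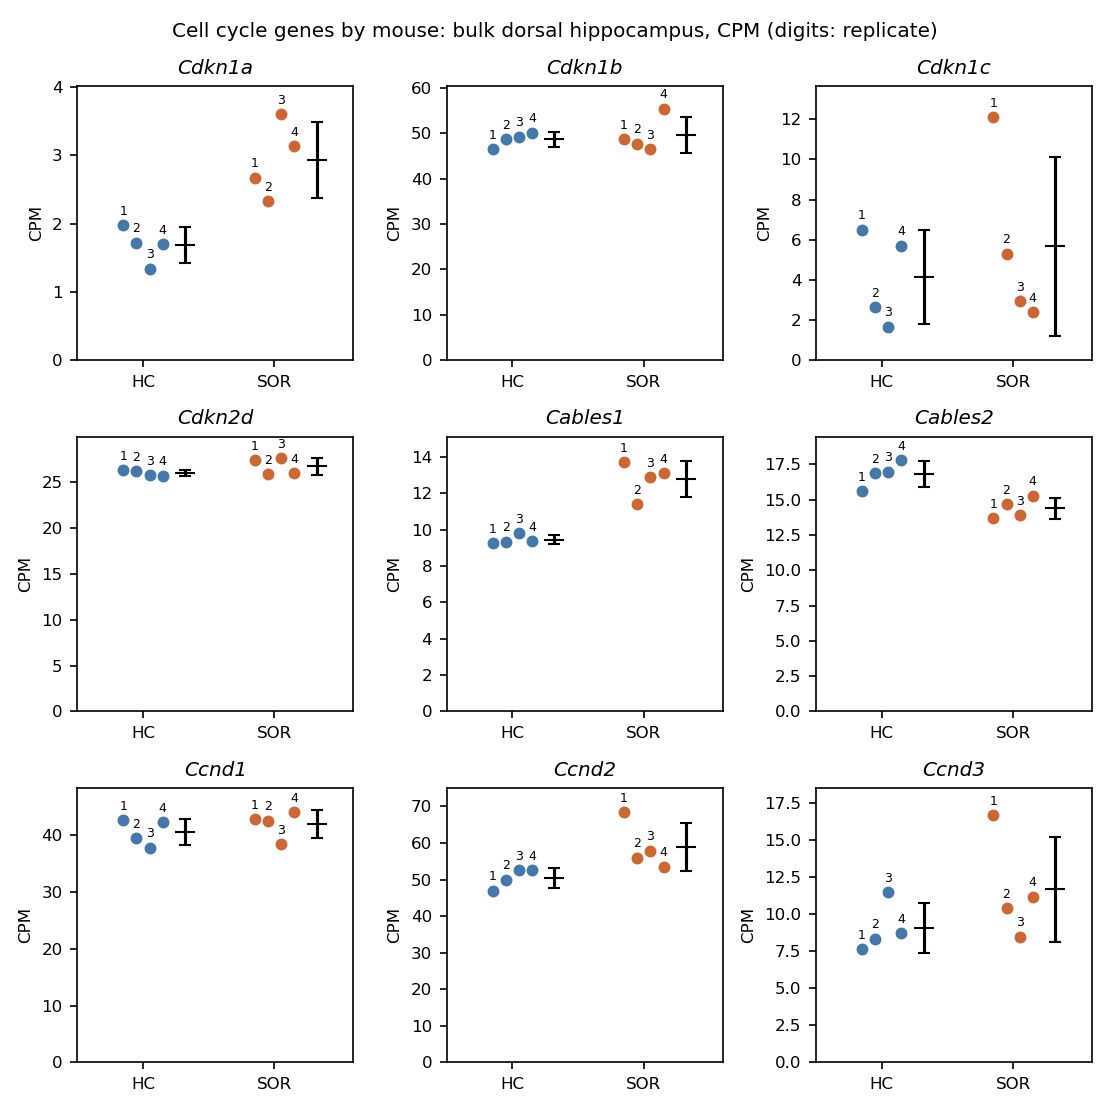
CPM of the 9 genes in each mouse (points, with the replicate number), for 4 HC and 4 SOR mice; the black bar is the group mean with its SD, and each vertical axis starts at 0. The SOR points lie above all HC points for *Cdkn1a*, *Cables1* and *Ccnd2*, below all of them for *Cables2*, and among them for the other 5 genes.

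**Figure D2:**
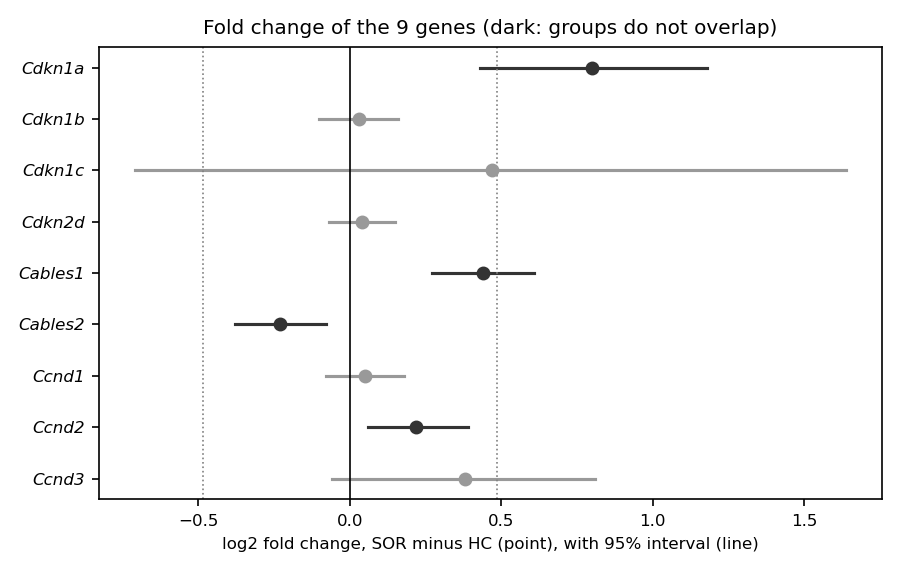
Log2 fold change of each gene, SOR minus HC (point), with its 95% interval from the quasi-likelihood fit (line); dotted lines mark a 1.4-fold change, and genes whose groups do not overlap are dark. *Cdkn1a* had the largest fold change of the 9, 0.80, and the interval of *Cdkn1c* was the widest, from -0.71 to 1.64.

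Among the Cip/Kip inhibitors, *Cdkn1a* had the lowest level of the 9 per length of exon. It had 1.98, 1.72, 1.34 and 1.70 CPM in HC replicates 1 to 4 and 2.67, 2.33, 3.60 and 3.13 CPM in SOR replicates 1 to 4. Every SOR mouse was above every HC mouse, with SOR replicate 2 and HC replicate 1 nearest to each other. The group means were 1.68 ± 0.262 and 2.93 ± 0.553 CPM (SD, n = 4 each), a fold of 1.74. On the log2 scale the change was 0.80 (standard error 0.169, 95% interval 0.43 to 1.18), and edgeR gave an adjusted p of 0.109. By unadjusted p (6.85e-04) it stood at rank 139 of the 22018 genes. The exact two-sided permutation test gave p = 0.0286, the smallest that 4 against 4 mice allow. *Cables1*, *Cables2* and *Ccnd2* had the same p, which only restates that the groups did not overlap. These values rest on 75 to 235 counts per library, with both ends of the range below those of every other member. An annotated transcript on the opposite strand, AC167363.2, shares 273 exonic bases with *Cdkn1a* and had at most 9.8 counts in a library.

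*Cdkn1b* was expressed at a far higher level. HC replicates had 46.4, 48.7, 49.2 and 50.1 CPM and SOR replicates 48.6, 47.7, 46.5 and 55.4 CPM. The groups overlapped, and only SOR replicate 4 lay above the HC range. Its log2 fold change of 0.03 had a standard error of 0.0585 and an adjusted p of 0.917 with edgeR. The 95% interval ran from -0.10 to 0.16 and did not reach the interval of *Cdkn1a*. Without SOR replicate 4 the estimate was -0.03.

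*Cdkn1c*, an imprinted gene, varied most between mice. HC replicates had 6.50, 2.64, 1.67 and 5.71 CPM, and SOR replicates had 12.1, 5.30, 2.94 and 2.41 CPM. Both groups spanned low and high mice, and SOR replicate 1 was the highest of all 8. The log2 fold change of 0.47 had a standard error of 0.529 and a 95% interval of -0.71 to 1.64 (adjusted p = 0.827 with edgeR). Without SOR replicate 1 it was -0.22. Markers of the choroid plexus, the secretory epithelium of the ventricles that lies against the hippocampus, varied in a similar order. Their summed level (*Ttr*, *Folr1*, *Kl*, *Clic6* and *Kcne2*) was 1087.7, 24.4, 64.4 and 877.9 CPM in HC replicates 1 to 4 and 3979.4, 877.3, 790.6 and 40.4 CPM in SOR replicates 1 to 4. All 5 markers had a higher mean in SOR, 0 of them at an unadjusted p under 0.05, and their groups overlapped. In the lowest library, HC replicate 2, *Kcne2* had 0.0845 CPM and *Ttr* 4.04 CPM. Across the 8 mice, which share these libraries, log2 *Cdkn1c* and the log2 marker sum had a Pearson correlation of 0.86 and a Spearman correlation of 0.905, and the Pearson correlations of the other 8 members lay between -0.526 and 0.511. With the marker sum as a covariate in the fit, the log2 fold change of *Cdkn1c* was -0.09 (standard error 0.3). An antisense transcript, Gm44732, shares 625 exonic bases with *Cdkn1c*; it had 46.3 counts in HC replicate 3, 38.0 in SOR replicate 3 and 0 in the others.

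**Figure D3:**
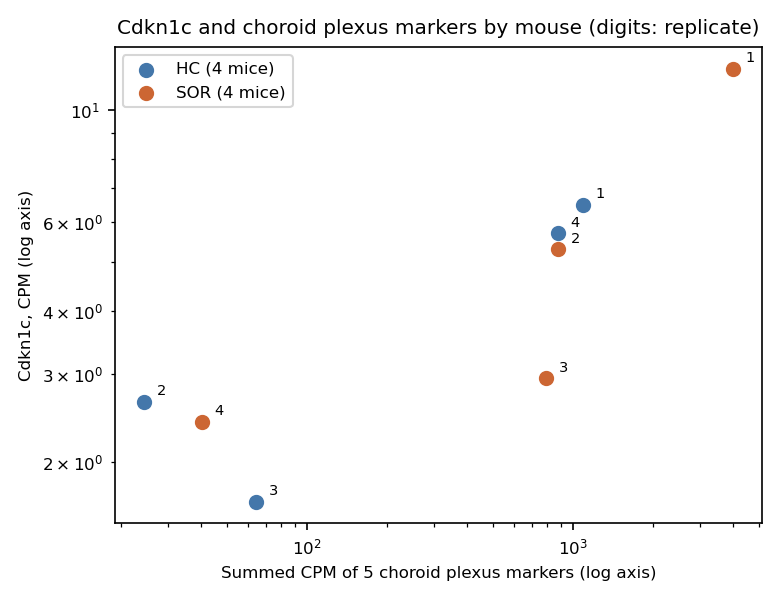
*Cdkn1c* in CPM against the summed CPM of 5 choroid plexus markers, both on log axes, with 1 point per mouse and its replicate number. SOR replicate 1 is highest on both axes, with 12.1 CPM of *Cdkn1c* and 3979.4 CPM of the markers, and the 3 mice with the lowest marker sums have 1.67 to 2.64 CPM of *Cdkn1c*.

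The INK4 member *Cdkn2d* was the steadiest of the 9. HC replicates had 26.3, 26.2, 25.8 and 25.7 CPM, and SOR replicates had 27.4, 25.9, 27.6 and 26.0 CPM. The groups overlapped, with SOR replicates 1 and 3 above the HC range. A log2 fold change of 0.04 was estimated (standard error 0.0487, 95% interval -0.07 to 0.15, adjusted p = 0.841 with edgeR).

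The Cables genes differed between the groups in opposite directions. *Cables1* (ENSMUSG00000040957, chromosome 18 from 11839220 to 11945630, plus strand) had 9.26, 9.33, 9.80 and 9.35 CPM in HC replicates and 13.7, 11.4, 12.9 and 13.1 CPM in SOR replicates. All SOR mice were above all HC mice, and the HC values lay close together. The group means were 9.44 ± 0.245 and 12.8 ± 0.983 CPM (SD, n = 4 each). The estimate on the log2 scale was 0.44 (standard error 0.0781, 95% interval 0.27 to 0.61), a fold of 1.35. The adjusted p with edgeR was 0.0551, at rank 74 of all genes, and the exact permutation p was 0.0286. That adjusted p lay at the threshold, and small changes of the model moved it to either side: it was 0.0495 with TMM scaling, 0.0499 with limma-voom and 1.91e-05 with DESeq2, and with the replicate number as a block it was 0.2. The antisense gene Gm6277 shares 1314 exonic bases with *Cables1*, 34.2% of its exons, and had 3.50 ± 0.395 CPM in HC and 3.72 ± 0.12 CPM in SOR mice (log2 fold change 0.09). The library kit marks strand, but the strand setting of the counting is not given in the sources used here, so that reads from shared exons may have been counted for either gene.

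*Cables2* was lower in SOR mice. HC replicates had 15.6, 16.9, 17.0 and 17.8 CPM, and SOR replicates had 13.7, 14.7, 13.9 and 15.3 CPM. Every SOR mouse was below every HC mouse, though SOR replicate 4 and HC replicate 1 were close to each other. On the log2 scale the change was -0.23 (standard error 0.0686, 95% interval -0.38 to -0.08), with an unadjusted p of 0.00716 and an adjusted p of 0.277 with edgeR. None of the alternatives run brought it under the threshold: its adjusted p was 0.0861 to 0.427 with all samples and 0.253 to 0.562 with a sample left out. Per kilobase of exon, *Cables1* stood at 0.71, 0.661, 0.69 and 0.629 times the level of *Cables2* in HC replicates and at 1.2, 0.93, 1.11 and 1.02 times in SOR replicates. The ratio was chosen after the values of both genes were seen and is a description only. By this measure *Cables2* was the higher of the pair in every HC mouse, and *Cables1* in 3 of 4 SOR mice. In CPM, not scaled by length, both had 13.7 in SOR replicate 1. *Cables2* was higher in the rest of the SOR mice (14.7, 13.9 and 15.3 against 11.4, 12.9 and 13.1 CPM). The order in SOR mice thus depends on the exon lengths used.

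Of the D-type cyclins, *Ccnd1* and *Ccnd3* passed the adjusted threshold in no model run. For *Ccnd1*, HC replicates had 42.6, 39.4, 37.8 and 42.3 CPM, and SOR replicates had 42.8, 42.5, 38.4 and 44.0 CPM. The groups overlapped, with SOR replicates 1 and 4 above the HC range. The estimate was 0.05 on the log2 scale (standard error 0.0582, 95% interval -0.08 to 0.18, adjusted p = 0.839 with edgeR). *LTO1*, a protein-coding gene on the opposite strand, shares 1100 exonic bases with *Ccnd1* (23.4% of its exons) and had 10.3 ± 4.9 CPM in HC and 13.8 ± 1.98 CPM in SOR mice.

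*Ccnd2*, the D cyclin known for its role in adult neurogenesis, had 46.9, 50, 52.6 and 52.5 CPM in HC replicates and 68.4, 56.0, 57.9 and 53.5 CPM in SOR replicates. All SOR mice lay above all HC mice, SOR replicate 4 by little and SOR replicate 1 far above the rest. The difference was 0.22 on the log2 scale (standard error 0.0744, 95% interval 0.06 to 0.39, unadjusted p = 0.0123 and adjusted p = 0.335 with edgeR). Without SOR replicate 1, the mouse with the highest choroid plexus sum, it was 0.14, and with the marker sum as a covariate 0.19. Of the models run, the likelihood ratio test with 3 RUVs factors was the only one in which it passed the adjusted threshold (adjusted p = 0.0125). On the opposite strand, Gm43126 shares 372 exonic bases with *Ccnd2* (3.95% of its exons) and 9330179D12Rik shares 368 (3.91%). Gm43126 had 1.32 ± 0.29 CPM in HC and 1.82 ± 0.374 CPM in SOR mice, and 9330179D12Rik had 0.956 ± 0.274 and 0.776 ± 0.143 CPM.

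*Ccnd3* had 7.66, 8.35, 11.5 and 8.71 CPM in HC replicates and 16.7, 10.4, 8.48 and 11.2 CPM in SOR replicates. The groups overlapped through HC replicate 3 and SOR replicate 3, and SOR replicate 1 was again the highest mouse. The log2 estimate was 0.38 (standard error 0.197, 95% interval -0.06 to 0.81, adjusted p = 0.561 with edgeR), and 0.15 without SOR replicate 1. *Bysl*, on the opposite strand, shares 361 exonic bases with *Ccnd3*, 4.11% of the exons of *Ccnd3*. As shares of the D-cyclin level per kilobase, *Ccnd1* made up 57.3% ± 2.83 (SD, n = 4) in HC and 54.1% ± 3.29 in SOR mice, *Ccnd2* 35.8% ± 1.72 and 37.9% ± 2.55, and *Ccnd3* 6.87% ± 1.28 and 7.98% ± 1.73. Each of these shares overlapped between groups. They rest on the summed length of all annotated exons of each gene, and the length of the expressed transcripts was not measured.

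**Figure D4:**
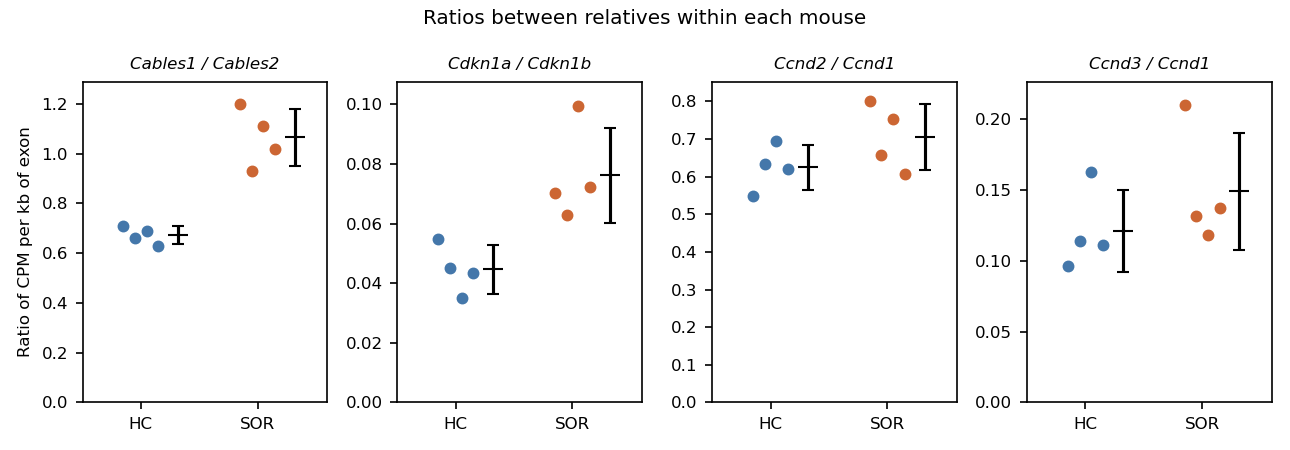
Ratio of the levels per kilobase of exon between relatives, within each mouse, for 4 HC and 4 SOR mice; the black bar is the mean with its SD, and each vertical axis starts at 0. *Cables1* over *Cables2* was 0.629 to 0.71 in HC and 0.93 to 1.2 in SOR mice and *Cdkn1a* over *Cdkn1b* was 0.035 to 0.0547 and 0.0627 to 0.0993, whereas both cyclin ratios overlapped between groups.

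Levels can be compared between genes only per length, and they are given here as CPM per kilobase of merged exons. These are all annotated exons of a gene, which can be longer than its expressed transcripts, so that the order depends on this length. In HC mice the order by group mean was *Cdkn2d* (16.5), *Cdkn1b* (10.7), *Ccnd1* (8.61), *Ccnd2* (5.36), *Cables2* (3.66), *Cables1* (2.46), *Cdkn1c* (2.03), *Ccnd3* (1.03) and *Cdkn1a* (0.474), a span of 34.8-fold. Neighbours in this order did not overlap between mice except *Cables1* with *Cdkn1c* and *Cdkn1c* with *Ccnd3*. In SOR mice the order was the same except that *Cables1* (3.33) and *Cables2* (3.13) changed places with overlapping values, and *Ccnd3* and *Cdkn1a* came to overlap. The p21 gene was the lowest of the 9 by mean in both groups (0.826 CPM per kilobase in SOR), below the p27 gene by a wide margin.

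The genes whose pattern over the 8 mice was most like that of a member were sought among the 16352 tested genes that averaged 1 CPM or more, by the Pearson correlation of log2 CPM. For *Cdkn1a* they were *Fam43a* (0.992), *Ntrk2*, which encodes the receptor of the neurotrophin BDNF (0.976), and *Znfx1* (0.974). For *Cables1* they were *Gpt2*, a mitochondrial alanine transaminase (0.984), the annotated gene *Gm45311* (0.976) and *Arc*, an immediate early gene of synaptic plasticity (0.974). For *Ccnd1* they were *Tbc1d13* (0.944), *Crcp* (0.939) and *Pdzd7* (0.935). These values are descriptions over 8 mice that share their libraries and include the difference between the groups. They are the highest among 16352 genes and so are high by selection. Both *Arc* and *Gpt2* rose by edgeR's test: *Arc* by a log2 fold change of 1.42 (from 91.9 to 246.3 CPM, adjusted p = 8.27e-06) and *Gpt2* by 0.38 (from 70.7 to 92.0 CPM, adjusted p = 0.0141). None of the others passed by that test. Their adjusted p was 0.138 to 0.484 for the genes like *Cdkn1a*, 0.415 for *Gm45311* and 0.67 to 0.961 for those like *Ccnd1*.

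The other genes of the pathway were read from 8 lists with 109 genes, of which 107 were tested. *Cdkn2a*, with at most 3 counts in a library, and *Aurkb*, with 4 to 13, fell under the filter. At an adjusted p under 0.05 in the quasi-likelihood fit described above, 1 of the 107 passed, *Egr1*. With DESeq2, *Bcl6*, *Fas*, *Foxo3*, *Mdm2* and *Ccnl2* passed as well. At an unadjusted p under 0.05 there were 18 (16.8%, against 10.1% of all genes), 14 higher and 4 lower, and the groups did not overlap in 13 (12.1%, against 6.95%). The median log2 fold change was 0.02. The lists were chosen with earlier results of these data known, so these shares describe them and are no test of the pathway. The genes named below other than *Egr1* and the 2 most expressed of each list were chosen after their values were seen.

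Described transcriptional regulators of *Cdkn1a* made up a list of 15, of which 10 were higher and 5 lower by sign, 4 and 1 of them at an unadjusted p under 0.05. *Egr1*, an immediate early transcription factor, had 22.1, 18.4, 20.1 and 18.4 CPM in HC replicates and 31.3, 37.8, 58.8 and 40.3 CPM in SOR replicates. All SOR mice were above all HC mice. The change was 1.09 on the log2 scale (standard error 0.163), with an adjusted p of 0.0212 from edgeR's quasi-likelihood test with upper-quartile scaling. In that fit *Egr1* was the only gene of the list past the threshold. The call was lost when any 1 of 6 of the 8 libraries was left out, and with the replicate block; it was kept without SOR replicate 1 (0.00823) and without SOR replicate 3 (0.00779). *Bcl6*, which encodes a transcriptional repressor, had a log2 fold change of 0.29. Its adjusted p was 0.0572 with edgeR's quasi-likelihood test, 0.0355 with TMM scaling, 0.0353 with RLE scaling, 0.00222 with the likelihood ratio test and 2.66e-05 with DESeq2, so that the call depended on the model. *Foxo3* had 0.21 and passed with DESeq2 (0.0356) and with 2 or 3 RUVs factors (0.0225 and 0.0105), and *Klf4*, with 0.58, passed in no model. *Nr3c1*, the glucocorticoid receptor gene and the most expressed of the list, had -0.10 (unadjusted p = 0.016), and *Sp3* 0.08.

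The list of p53 and its targets held 21 genes, 14 higher and 7 lower by sign. In edgeR's quasi-likelihood test there were 6 at an unadjusted p under 0.05, all higher, and 0 at an adjusted p. Of all tested genes, 4.54% were higher at that unadjusted p. *Fas*, the death receptor gene, had the largest fold change, 1.0 on the log2 scale (standard error 0.224). It had 0.725 ± 0.142 CPM in HC and 1.45 ± 0.367 CPM in SOR mice (SD, n = 4 each), on 31 to 123 counts per library, and its adjusted p was 0.129 with edgeR's quasi-likelihood test. It passed with the likelihood ratio test (0.0158), with DESeq2 (0.0089) and with 1, 2 or 3 RUVs factors (0.0177, 0.0139 and 0.00248). *Mdm2*, the ligase that turns over p53, had 0.22 and passed with DESeq2 (0.0449). *Trp53inp1* had 0.28 and passed with 2 RUVs factors (0.045). *Sesn1* had 0.16, *Plk3* 0.28 and *Plk2*, the most expressed of the list, 0.11. *Mdm4*, next in level, had 0.04. Lower by sign were *Trp53* itself (-0.04), *Gadd45a* and *Bbc3* (both -0.14), *Rrm2b* (-0.08), *Tnfrsf10b* (-0.07), *Btg2* (-0.06) and *Xpc* (-0.03). The groups did not overlap in 3 genes of the list with SOR higher and in 1, *Rrm2b*, with SOR lower. The median of the list was 0.07.

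The machinery that the members act on was read from the other lists. None of 7 cyclin-dependent kinases and Cdk5 activators reached an unadjusted p under 0.05 (median 0.01), and *Cdk5* (-0.05) and its activator gene *Cdk5r1* (-0.06), the most expressed of them, had small fold changes with standard errors of 0.069 and 0.0534. Of the 21 other cyclins, 3 were higher (*Ccnl2*, *Ccnt2* and *Ccnjl*) and 2 lower (*Ccno* and *Ccnh*) at an unadjusted p under 0.05. *Ccnl2* (0.18) passed the adjusted threshold with DESeq2 (0.0346) and with 2 RUVs factors (0.042). *Ccno* had the largest fold change of them, -0.54, on 49 to 102 counts. The most expressed cyclins, *Ccny* and *Ccng1*, both had 0.02. Of 13 genes of the RB and E2F list, 9 were higher and 4 lower by sign, and 1, *E2f6* (0.18), was higher at an unadjusted p under 0.05. *E2f2* had the largest change of the list, -0.86, with a standard error of 0.413 and an unadjusted p of 0.0628 in edgeR's fit. The most expressed, *Tfdp2* and *Rbl2*, had 0.04 and -0.05. The remaining CDK inhibitors that could be tested, 3 genes, gave 0 at an unadjusted p under 0.05, *Cdkn2c* with -0.02 and *Cdkn2b* with -0.28 among them.

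Genes of DNA replication and mitosis, which mark dividing cells, gave 4 higher and 11 lower by sign among the 15 tested, 0 of them at an unadjusted p under 0.05, with a median of -0.06. *Pcna* had 0.01 and *Tyms* -0.08. Of 12 genes for the turnover of p21, p27 and the D cyclins, 2 were higher and 10 lower by sign, and 1, the ubiquitin ligase scaffold *Cul1* (-0.08), was lower at an unadjusted p under 0.05. The adaptor *Skp1* had -0.03 and *Ddb1* -0.01.

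**Figure D5:**
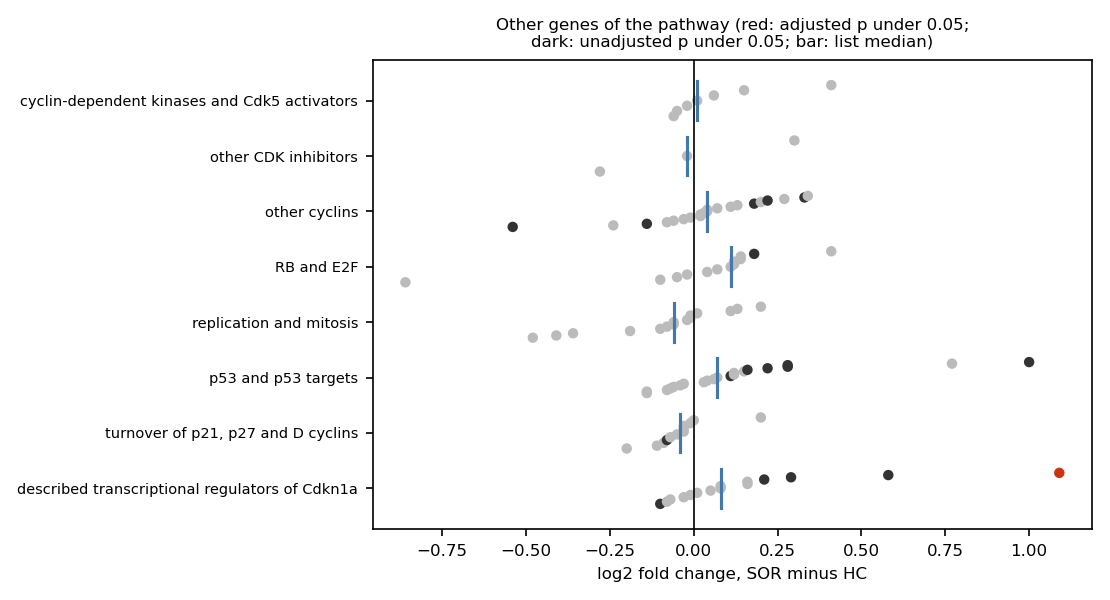
Log2 fold change, SOR minus HC, of the 107 tested genes of the 8 pathway lists, 1 point per gene; red marks an adjusted p under 0.05, dark grey an unadjusted p under 0.05, and the blue bar is the list median. The single red point is *Egr1* at 1.09, and the medians lie between -0.06 and 0.11.

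Total counts per library ranged from 51406011 to 81525977, and edgeR estimated a biological coefficient of variation of 14.1%. Pan-neuronal markers were high in every mouse (2980.2 to 3312.1 CPM in sum). Markers of mature oligodendrocytes were lower by sign in SOR in 6 of 6 genes, 3 of them at an unadjusted p under 0.05, with sums of 5020.9 to 5480.2 CPM in HC and 4109.0 to 5380.9 CPM in SOR mice. Red blood cell genes were higher by sign in 4 of 4, 2 of them at an unadjusted p under 0.05, with sums of 94.6 to 123.2 and 111.0 to 179.7 CPM. Across the 16 marker lists 1 gene passed the adjusted threshold, *Enpp6* of newly formed oligodendrocytes, which was lower (log2 fold change -0.68, adjusted p = 0.0142 with edgeR). In the same list *Bcas1* had -0.13 and *Itpr2* 0.02, both with overlapping groups. The sums of that list overlapped too, with 283.3 to 301.5 CPM in HC and 234.8 to 303.2 CPM in SOR mice. The part of these cell types in the values of the members was not tested.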

How the data were processed

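Bulk RNA-seq of the dorsal hippocampus was used from 4 HC and 4 SOR mice. Per the methods, total RNA was depleted of ribosomal RNA and libraries were made with a stranded kit, whereas the labels name polyA RNA. The authors deposited estimated counts, 1 value per gene and mouse, after STAR alignment within bcbio-nextgen (mm10). The methods name featureCounts and the deposit names tximport, and 52.6% of the values are not whole numbers. The quantifier and the strand setting are not given in the sources used here. GENCODE M21 (GRCm38) had a record for 54495 of 54532 genes.

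Counts were rounded, filtered with filterByExpr (22018 genes), scaled with upper-quartile factors and tested by quasi-likelihood in edgeR 4.0.16 (R 4.3.3), and p was adjusted after Benjamini-Hochberg over these genes. Standard errors and intervals come from the fold change, the F statistic and its degrees of freedom. For each member an exact permutation test (2-sided, mean log2 CPM) was run over the 70 assignments of mice to groups. Alternatives were other scaling (TMM, RLE, library size), other filtering (none, or over 5 counts in 2 samples), the likelihood ratio test without and with 1 to 3 RUVs factors, 1 RUVs factor with the quasi-likelihood test, DESeq2 1.42.0, limma-voom (limma 3.58.1), a replicate block, unrounded counts and each sample left out; a choroid plexus covariate was added after seeing the data. The main fits were run on simulated data in which 200 genes were changed, each by more than any member, with the same dispersion for all genes. Changes as small as those of the members were not simulated. Tables used Python 3.11.15, pandas 2.3.3, numpy 2.4.6 and scipy 1.17.1.

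The rule for named genes took all 9 members, from each pathway list the genes past the adjusted threshold and the 2 with the highest mean CPM, and for *Cdkn1a*, *Cables1* and *Ccnd1* the 3 genes of most similar pattern; other pathway genes are named as chosen after their values were seen. Members and lists were chosen with earlier results of these data known. Replicates differed by more than counting error, with a chi-square of 11.9 to 54.1 per degree of freedom. Each column is 1 mouse, and the labels give no batch. Markers of 16 cell types or regions were read for cell composition. The spatial, single-nucleus and ATAC data were not analysed here.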

Additional observations from a re-analysis of the deposited data

Results flagged for a closer look

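*Cables1* in HC replicate 3 stood apart from its group: it had 9.8 CPM, while the other 3 HC mice had 9.26 to 9.35 CPM. The gap to the nearest mouse was 0.832 of the range of the group, just over the critical value of Dixon's test for 4 samples. The member values were tested in 18 groups, and chance flags about 1 in 20. All 4 SOR mice lay above this value.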

How the results depend on the processing

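Of the single-member fold changes under the alternatives, 191 kept their direction and their side of the threshold, 13 passed the threshold in addition and 3 changed sign. The latter were *Cdkn1c*, at -0.22 without SOR replicate 1 and at -0.09 with choroid plexus markers as a covariate, and *Cdkn1b*, at -0.03 without SOR replicate 4. The number of members at an adjusted p under 0.05 was 0 in the fit described above, 1 with TMM scaling and with limma-voom (*Cables1*), 2 with the likelihood ratio test, with DESeq2 and with 1 or 2 RUVs factors (*Cdkn1a* and *Cables1*), and 3 with 3 RUVs factors, which added *Ccnd2*. With a fold change above 1.4 as well, it was 1, *Cdkn1a*, with DESeq2, the likelihood ratio test and this test with 1, 2 or 3 RUVs factors. Those tests also called more of all genes, 0.972% with the likelihood ratio test, 1.39%, 2.27% and 2.31% with 1, 2 and 3 factors, and 2.45% with DESeq2, against 0.309%. With 1 sample left out, 0 members passed in each of the 8 fits. *Cdkn1a* then had log2 fold changes of 0.69 to 0.90 (adjusted p 0.101 to 0.293) and *Cables1* of 0.40 to 0.49 (adjusted p 0.0542 to 0.198), while *Cdkn1b* ran from -0.03 to 0.06 and *Cdkn1c* from -0.22 to 0.77.

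Pathway list genes at an adjusted p under 0.05 numbered 1 in the fit described above, 2 with TMM or RLE scaling, no filter, 1 RUVs factor with the quasi-likelihood test or the choroid plexus covariate, 3 with the likelihood ratio test alone or with 1 RUVs factor, 4 with 3 factors, 6 with 2 factors or DESeq2, 0 with the replicate block, and 0 to 1 with a sample left out. Whether mice with the same replicate number were processed together is not stated in the sources used here. Their deviations from group means had correlations of -0.0986 to 0.152, against -0.307 to 0.234 for mice with different numbers. Of the 8 mice, 2 correlated best with their own number. With so few pairs, these values cannot show whether a block was present or absent. With the replicate block, 40 genes passed instead of 68, *Cdkn1a* had an adjusted p of 0.3 and *Cables1* of 0.2. Where an alternative moved a value, the cause was not tested. *Cdkn1a* rests on 75 to 235 counts per library, the fewest of the members.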
